A study of Mus musculus with 5 samples.

Results

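The genes of the transforming growth factor beta (TGF-beta) and bone morphogenetic protein (BMP) pathway were examined in RNA of the mouse dentate gyrus (DG), the part of the hippocampus in which new granule neurons are added in the adult. The members were a list of 46 gene symbols covering ligands, receptors, Smad proteins, antagonists and the Id target genes, and all 46 were among the 23420 symbols measured. The 5 libraries came from wild-type male mice of the outbred strain CD1, given as 4 months old in the labels, and each library was made from pooled polyadenylated RNA of microdissected DG after 4 weeks of housing. In the locked disk group (LD), 8 mice were housed alone with a running disk that could not turn. The complex environment group (CE) had a locked disk, cage mates and tunnels (8 mice), and the exercise group (RUN) had 8 mice housed alone with a disk that turned freely. The low runners (L-RUN) and high runners (H-RUN) were the 4 mice of RUN with the shortest and the 4 with the longest running distances, so RUN held the RNA of both. CE differed from LD in company and in surroundings at once, and L-RUN and H-RUN were formed by how far the mice ran and not by assignment. Each group had 1 library, so no test between groups was possible and every difference below lacks a replicate check.

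TGF-beta ligands, activins, BMPs and growth and differentiation factors (GDFs) are secreted dimers that bring together type I and type II receptor kinases. The type I receptor then phosphorylates receptor Smads, which join Smad4 and enter the nucleus. Smad2 and Smad3 serve the TGF-beta and activin branch and Smad1, Smad5 and Smad9 the BMP branch, with the Id genes as classic direct targets of the latter. In the adult DG, BMP signaling is known for holding neural stem cells in quiescence, and the antagonist Noggin for opposing it.

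The values are regularized log values, in which read counts are normalized and put on a log2 scale and the values of each gene are pulled towards their mean over the libraries, most for genes with few reads. The read counts are not in the files used here, so the depth of each library is unknown. A difference of 1 is a doubling, and a gene is called here when its difference is 0.3 or more in either direction. Genes with a mean of at least 5 over the 5 libraries are termed expressed, 13550 of all genes and 40 of the 46 members. Library noise could be estimated once, since RUN repeats the RNA of L-RUN and H-RUN. The SD of a difference between 2 libraries that follows from the scatter of RUN around their equal mixture was 0.036 (technical SD), and 0.022 to 0.047 across the levels of the members. It includes no difference between mice. Of 10 markers of granule neurons, all were expressed in the DG, with means from 8.10 for Pdyn to 13.10 for Rfx3. As the tissue is a mixture of cells, fewer cells of a type and less RNA per cell cannot be told apart in any of the values below.

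The DG expressed members of every step of the pathway. Set per kb of the longest annotated transcript, the mean level of the expressed members (log2 scale) ran from 3.69 for Inhba, a subunit of activin, to 10.16 for Bmp1. Bmp1 is no ligand in spite of its name but a secreted metalloprotease that trims procollagens and cleaves Chordin. Ski, a nuclear corepressor of Smads, stood close to it at 10.11, followed by Id2 and by Smad3 at 9.84. Among the receptors Acvr2a, a type II receptor for activins, came highest at 9.49, and among the antagonists Chrd, which codes for the BMP antagonist Chordin, at 9.42. Tgfb2 led the TGF-beta ligands at 8.96, against 6.25 for Tgfb3 and 5.18 for Tgfb1, and the coreceptor Tgfbr3 stood at 6.64. The BMP ligands were low, with 4.85 for Bmp6, 4.51 for Bmp7 and 4.04 for Bmp4, below their relatives Gdf10 (6.50) and Gdf11 (5.97). The 6 members under the expression minimum were Bmp2, Bmp3, Bmp5, Grem1, Acvr2b and Smad6, whose mean regularized log values were 4.50, 4.75, 3.93, 4.30, 4.89 and 4.94. The values of these 6 spread by no more than 0.10 over the 5 libraries, a range in which shrinkage is strong, and they are left out of the counts.

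Few members passed the cut-off in any comparison, and those that did were 7 genes. In CE, 1 of 40 members was called against LD, the corepressor gene Skil, which was lower. Of all expressed genes 0.598% were called in CE, 0.332% higher and 0.266% lower. In RUN, 3 of 40 members were called and all were lower, Bmpr2, Tgfbr1 and Skil, against 1.31% of all expressed genes (0.362% higher and 0.952% lower). In L-RUN, 4 of 40 were called, with Bmp6 and Bmp1 higher and Bmpr2 and Skil lower, against 3.13% of all expressed genes (0.797% higher and 2.33% lower). In H-RUN, 2 of 40 were called, Acvr1c higher and Tgfbr1 lower, against 0.827% of all expressed genes (0.354% higher and 0.472% lower). L-RUN compared directly with H-RUN gave 2 of 40, Bmp7 higher and Bmpr2 lower, against 1.54% of all expressed genes (0.561% higher and 0.974% lower). In percent of the 40 members these counts are 2.5 in CE, 7.5 in RUN, 10 in L-RUN, 5 in H-RUN and 5 between L-RUN and H-RUN. With 1 to 4 genes behind each share, nothing particular to the pathway is read from them. The median difference of the members from LD was -0.03 in CE and -0.04 in RUN, with -0.04 in L-RUN and -0.04 in H-RUN, where that of all expressed genes was between -0.004 and -0.001. All 4 of these comparisons use the same LD library.

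**Figure D1:**
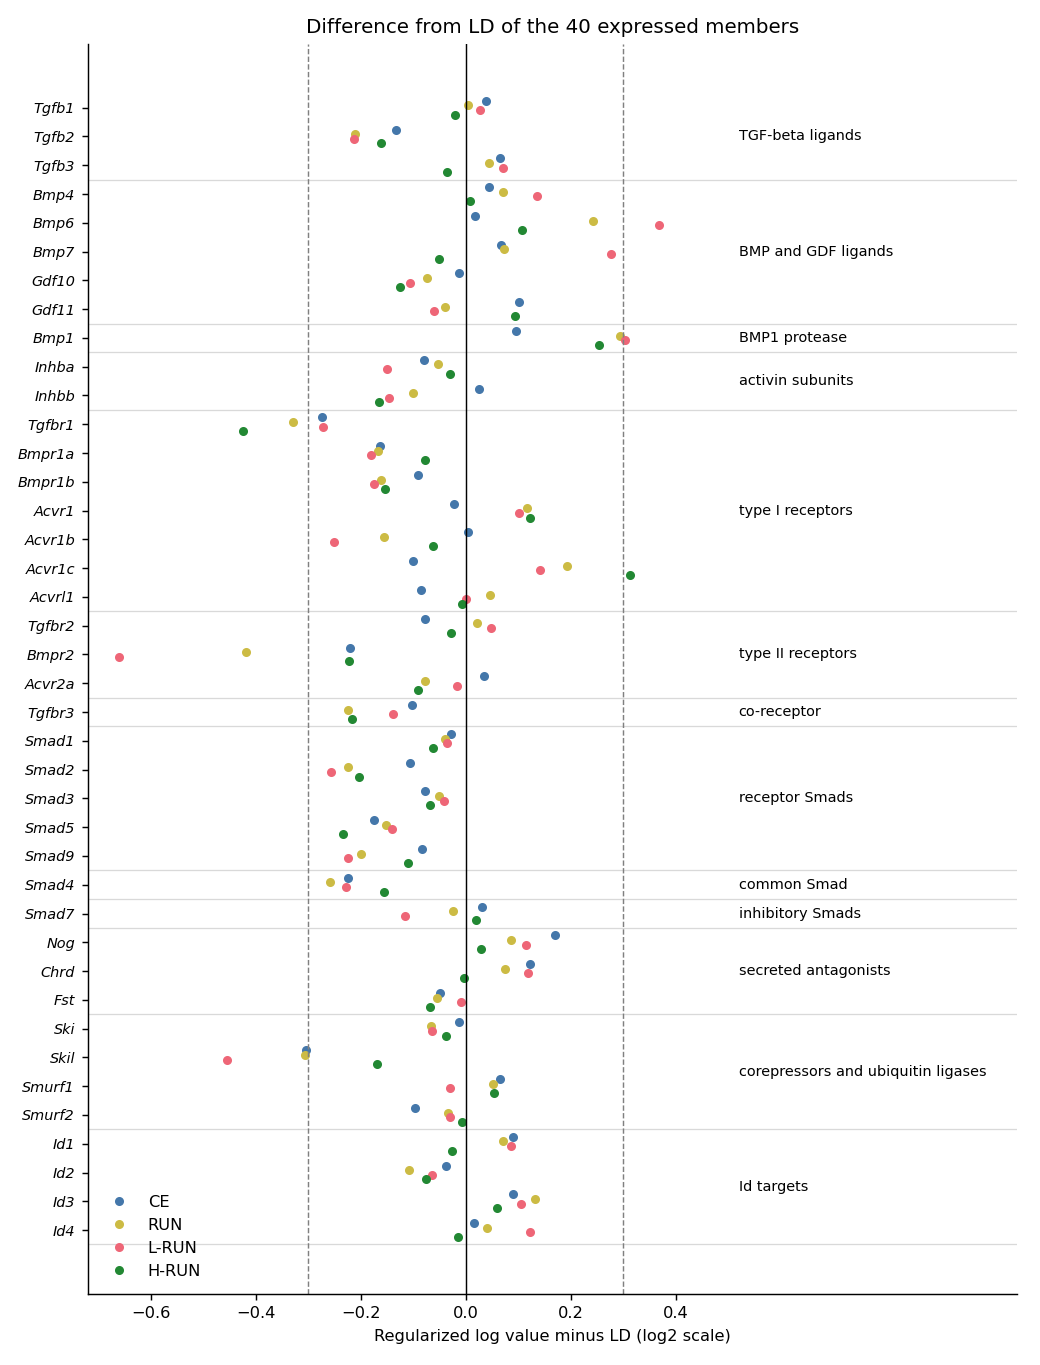
Difference of the regularized log value from LD (log2 scale, x axis) for the 40 expressed members, grouped by role, with 1 point each for CE, RUN, L-RUN and H-RUN and dashed lines at the cut-off of 0.3 on either side. Bmpr2 in L-RUN lies farthest from LD, at -0.66, and most points lie inside the dashed lines.

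The receptor genes held the largest difference among the members. Bmpr2 (chromosome 1, 59763400 to 59879014, GRCm38), a type II receptor for BMPs, had regularized log values of 9.43 in LD, 9.21 in CE and 9.01 in RUN, with 8.77 in L-RUN and 9.21 in H-RUN. LD was thus the highest and L-RUN the lowest, with CE and H-RUN level with each other. Against LD the value was lower by a difference of -0.66 in L-RUN (0.633 times the LD level) and -0.42 in RUN (0.748 times), while CE and H-RUN, at -0.22 each, did not reach the cut-off. The technical SD at this level was 0.042. Bmpr2 has the longest transcript of all members, and its values after removal of the trend with transcript length are given below.

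Tgfbr1 (chromosome 4, 47353222 to 47414931), the type I receptor for TGF-beta, stood at 10.66 in LD, 10.39 in CE and 10.33 in RUN, with 10.39 in L-RUN and 10.24 in H-RUN. LD was again the highest, but here H-RUN was the lowest. The difference from LD was -0.42 in H-RUN and -0.33 in RUN, and -0.27 in both CE and L-RUN, just outside the cut-off (technical SD 0.036). Microglia are known to express this receptor. The 8 microglial markers, all expressed and none called, had a median difference from LD of -0.10 in CE and -0.12 in RUN, with -0.14 in L-RUN against -0.11 in H-RUN, and their summed level on the linear scale was 8833 in LD and 7891 to 8094 in the other libraries. Their part in the Tgfbr1 values was not tested.

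Acvr1c (chromosome 2, 58267453 to 58357895) codes for ALK7, a type I receptor for Nodal and some activins and GDFs, and moved the other way. Its values were 10.34 in LD, 10.24 in CE and 10.53 in RUN, with 10.48 in L-RUN and 10.65 in H-RUN. All running libraries were above LD and CE was below it. Only the difference of H-RUN, 0.31, was called, against 0.19 in RUN, 0.14 in L-RUN and -0.10 in CE (technical SD 0.036).

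Of the 11 expressed receptor genes, counting the coreceptor Tgfbr3, 9 were below LD in CE and 7 in RUN, with 8 in L-RUN and 9 in H-RUN, where the share of all expressed genes below LD was between 50.7% and 52.0%. Their median difference was -0.09, -0.15, -0.14 and -0.08 in the same order. With the trend of differences with transcript length removed, as described below, the medians were -0.06, -0.11, -0.07 and -0.05, and 9, 7, 6 and 8 of the 11 lay below 0. Tgfbr3, which presents TGF-beta ligands to the signaling receptors, had values of 9.39 in LD, 9.28 in CE and 9.16 in RUN, with 9.25 in L-RUN and 9.17 in H-RUN, with LD the highest. Its differences of -0.22 in RUN and H-RUN were not called. Bmpr1a and Bmpr1b, type I receptors for BMPs, lay between -0.18 and -0.08 in the 4 groups. Acvr1b, a type I receptor for activin, had values of 11.19 in LD, 11.19 in CE and 11.04 in RUN, with 10.94 in L-RUN and 11.13 in H-RUN, so that LD and CE were level and L-RUN was the lowest at -0.25 from LD. Acvr1, the type I receptor with the highest level per kb, had values of 10.63 in LD, 10.61 in CE and 10.75 in RUN, with 10.74 in L-RUN and 10.76 in H-RUN. The running libraries lay close together and above LD, by at most 0.12. Acvr2a had values of 12.03 in LD, 12.06 in CE and 11.95 in RUN, with 12.01 in L-RUN and 11.94 in H-RUN, all less than 0.1 from LD. Tgfbr2, the type II receptor for TGF-beta, and the endothelial receptor gene Acvrl1 lay between -0.09 and 0.05 from LD.

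**Figure D2:**
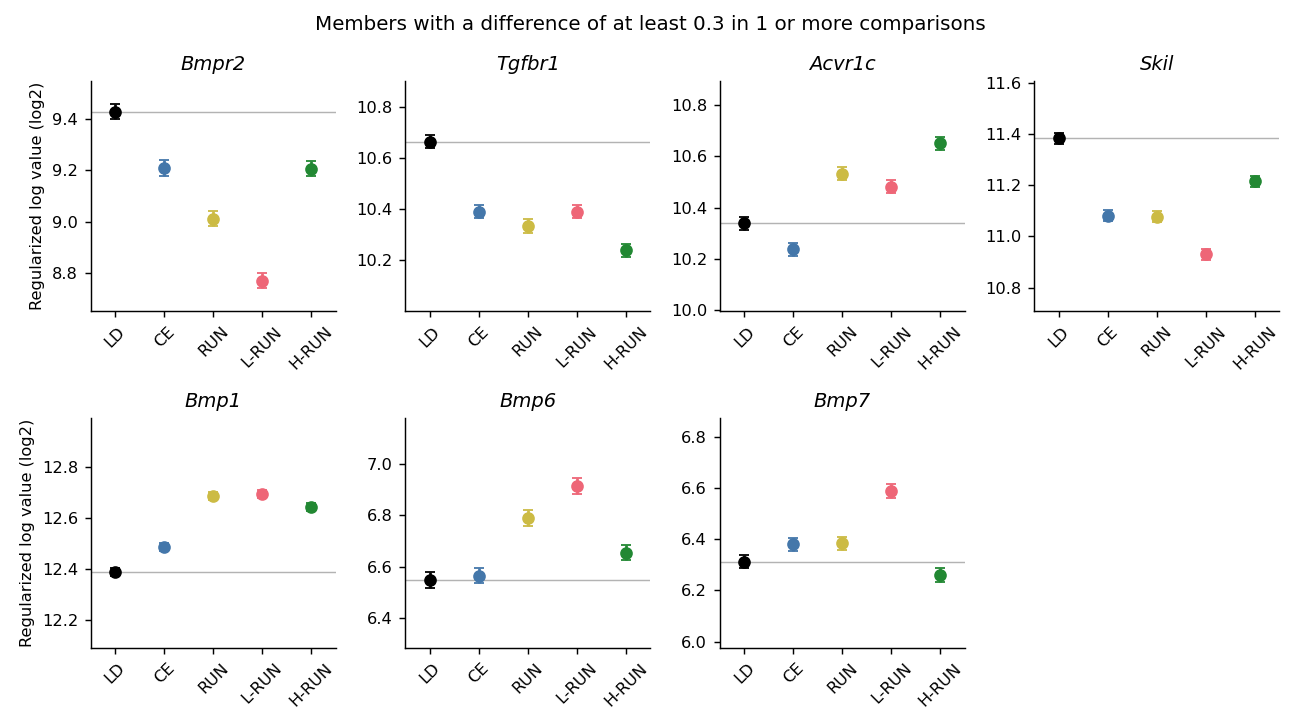
Regularized log value (log2 scale, y axis) in each of the 5 libraries for the 7 members called in 1 or more comparisons, with error bars of the technical SD of 1 library and a grey line at the LD value; every panel spans 0.9 on the y axis. LD is the highest library for Bmpr2, Tgfbr1 and Skil, and L-RUN the highest for Bmp1, Bmp6 and Bmp7.

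The Smad genes lay slightly below LD as a group and none was called. Of the 7 expressed Smads, 6 were below LD in CE and 7 in RUN, with 7 in L-RUN and 6 in H-RUN, with medians of -0.08, -0.15, -0.14 and -0.11. Smad4, the partner shared by both branches, had values of 10.30 in LD, 10.07 in CE and 10.04 in RUN, with 10.07 in L-RUN and 10.14 in H-RUN, so that LD was the highest and the other libraries lay 0.16 to 0.26 below it (technical SD 0.040). Smad2, of the TGF-beta branch, differed from LD by -0.11 in CE and -0.22 in RUN, with -0.26 in L-RUN and -0.20 in H-RUN. Its partner Smad3, with the higher level per kb, was nearly flat, at 12.23 in LD, 12.15 in CE and 12.18 in RUN, with 12.19 in L-RUN and 12.16 in H-RUN. In the BMP branch, Smad5 differed from LD by -0.17 in CE and -0.15 in RUN, with -0.14 in L-RUN and -0.23 in H-RUN. Smad9 lay between -0.22 and -0.08 and Smad1 between -0.06 and -0.03. Smad7, an inhibitory Smad that blocks type I receptors, stood at 8.47 in LD, 8.50 in CE and 8.45 in RUN, with 8.36 in L-RUN and 8.49 in H-RUN, with L-RUN the lowest at -0.12 from LD.

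Among the ligands, Bmp6 and Bmp7 were higher in L-RUN than in the other libraries. Bmp6 (chromosome 13, 38345107 to 38500302) had values of 6.55 in LD, 6.56 in CE and 6.79 in RUN, with 6.92 in L-RUN and 6.65 in H-RUN. LD and CE were level, and the running libraries lay above them with L-RUN on top. The difference from LD was 0.37 in L-RUN (1.29 times the LD level), 0.24 in RUN and 0.11 in H-RUN (technical SD 0.044). Bmp6 shares 224 exon bases with Txndc5 on the opposite strand, and whether reads were counted by strand is not given in the sources used here. Bmp7 (chromosome 2, 172868012 to 172940321) had values of 6.31 in LD, 6.38 in CE and 6.38 in RUN, with 6.59 in L-RUN and 6.26 in H-RUN. L-RUN stood apart from the other 4 libraries, with 0.28 above LD and 0.33 above H-RUN, of which the latter passed the cut-off (technical SD 0.037). Bmp4, the other BMP ligand above the expression minimum, had its highest value in L-RUN as well, 5.17 against 5.03 in LD, a difference of 0.14.

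BMP ligands are known to be made by cells of the meninges, and markers of leptomeningeal fibroblasts were higher in the same library. Of 19 such markers, 17 were expressed and none was at 0. In L-RUN 12 of the 17 were called higher than in LD, in RUN 8 and in CE 4, while in H-RUN none was called higher and 2 lower. Of all expressed genes, 0.797% were called higher in L-RUN, 0.362% in RUN and 0.332% in CE, and 0.472% lower in H-RUN. The list was chosen with earlier results of these data known, so the counts describe these libraries and are no separate evidence. Their median difference from LD was 0.59 in L-RUN, 0.26 in RUN, 0.09 in CE and -0.01 in H-RUN. The level summed over the list on the linear scale was 8268 in LD, 9528 in CE and 13972 in RUN, with 19827 in L-RUN against 7655 in H-RUN. Ptgds, at 11.64 in LD and 1.97 higher in L-RUN, is the most abundant gene and weighs most in this sum, whereas the median does not depend on it. Bmp7 and the summed markers were both highest in L-RUN and lowest in H-RUN, but Bmp7 in H-RUN was only -0.05 from LD (technical SD 0.037). The summed markers were higher in RUN than in CE, while Bmp7 was 6.38 in both. Bmp6 was also highest in L-RUN, but its lowest library was LD, at 6.55 against 6.65 in H-RUN. Bmp4 was highest in L-RUN as well, with LD and H-RUN level at 5.03 and 5.04 (technical SD 0.037). Its mean of 5.08 is close to the expression minimum. Ranked by the largest difference in any of the 5 comparisons, Ptgds was followed by Igf2, Fmod, Slc13a4, Dcn and Slc6a13. In L-RUN, Igf2, Fmod, Slc13a4 and Slc6a13 were 1.096, 1.01, 0.83 and 0.69 above LD, while Dcn, at 0.29, was not called there and differed most between L-RUN and H-RUN. The part of leptomeningeal cells in the Bmp6 and Bmp7 values was not tested.

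**Figure D3:**
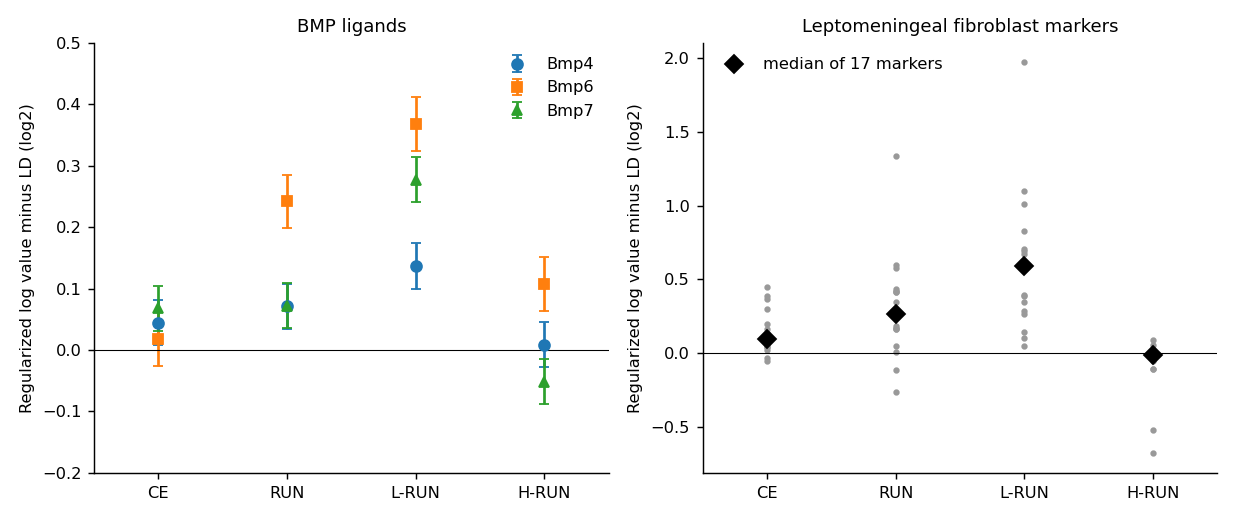
Left, difference from LD (log2 scale) of Bmp4, Bmp6 and Bmp7 in CE, RUN, L-RUN and H-RUN, with error bars of 1 technical SD of a difference; right, the same difference for 17 leptomeningeal fibroblast markers (grey points) with their median (black diamonds). The y axes differ, and both the ligands and the marker median are highest in L-RUN, at 0.37 for Bmp6 and 0.59 for the markers.

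Markers of other cell types gave fewer calls. Among the granule neuron markers Prox1 was lower in L-RUN (-0.41) and C1ql2 higher in all running libraries (0.37 to 0.40). Of 9 markers of CA1 or CA3 pyramidal neurons, 2 were called higher in CE (0.332% of all expressed genes) and 1 lower in RUN (0.952%). In H-RUN 1 was called higher (0.354%) and 1 lower (0.472%), and 2 were lower in L-RUN than in H-RUN (0.974%). Wfs1 and Mpped1 were lower in L-RUN (-0.33 each). Fibcd1 was higher in CE (0.31) but lower in RUN, L-RUN and H-RUN (-0.46, -0.46 and -0.52). In L-RUN the median of these 9 markers was -0.25 and 4 were called lower, against 2.33% of all expressed genes. The astrocyte markers Slc1a2 and Slc1a3 (-0.36 and -0.30) and the endothelial marker Flt1 (-0.43) were lower in L-RUN. Sst, of interneurons, was higher in CE (0.34) and in L-RUN (0.30), and the choroid plexus marker Ttr was higher in CE (0.62). Acta2, of mural cells, was higher in L-RUN than in H-RUN (0.32). No marker of mossy cells, immature neurons, oligodendrocytes or their precursors was called. All 7 oligodendrocyte markers were below LD in L-RUN, however, with a median of -0.20 and values up to -0.05, against a median of 0.01 in H-RUN. The part of these cell types in the members' values was not tested.

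The other ligands were closer to LD. Tgfb2, the TGF-beta ligand with the highest level per kb, had values of 11.46 in LD, 11.33 in CE and 11.25 in RUN, with 11.25 in L-RUN and 11.30 in H-RUN. LD was the highest, and the differences of -0.21 in RUN and L-RUN did not reach the cut-off. Tgfb1 and Tgfb3 lay between -0.04 and 0.07 from LD. Gdf10 had values of 8.95 in LD, 8.93 in CE and 8.87 in RUN, with 8.84 in L-RUN and 8.82 in H-RUN, with the running libraries lowest, and Gdf11 lay between -0.06 and 0.10 from LD. Of the activin subunits, Inhbb had values of 6.70 in LD, 6.72 in CE and 6.60 in RUN, with 6.55 in L-RUN and 6.53 in H-RUN, the running libraries being lowest. Inhba differed from LD by -0.15 in L-RUN and by less in the other groups.

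Bmp1 (chromosome 14, 70474558 to 70520234) was higher in every running library. Its values were 12.39 in LD, 12.49 in CE and 12.68 in RUN, with 12.69 in L-RUN and 12.64 in H-RUN, so that the running libraries lay close together and above both LD and CE. The differences from LD were 0.30 in L-RUN, 0.29 in RUN and 0.25 in H-RUN, against 0.10 in CE, and the technical SD at this high level was 0.022. L-RUN was called and RUN was not, at 0.303 and 0.295, so the cut-off falls between 2 nearly equal values.

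The secreted antagonists were not called in any comparison. Chrd had values of 11.50 in LD, 11.62 in CE and 11.58 in RUN, with 11.62 in L-RUN and 11.50 in H-RUN, with LD and H-RUN level and 0.12 below CE and L-RUN. Nog, which codes for Noggin, had values of 8.02 in LD, 8.19 in CE and 8.11 in RUN, with 8.14 in L-RUN against 8.05 in H-RUN, and its highest value was in CE, 0.17 above LD (technical SD 0.047). Fst, which codes for the activin antagonist Follistatin, lay between -0.07 and -0.008 from LD.

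Of the nuclear corepressors, Skil was lower than LD in all other libraries and Ski was not called. Skil (chromosome 3, 31095058 to 31122577), which codes for the Smad corepressor SnoN, had values of 11.38 in LD, 11.08 in CE and 11.08 in RUN, with 10.93 in L-RUN and 11.22 in H-RUN. LD was the highest, L-RUN the lowest and CE and RUN were level. The difference was -0.45 in L-RUN (0.730 times the LD level), -0.31 in RUN, -0.30 in CE and -0.17 in H-RUN, with a technical SD of 0.031. In CE and RUN it passed the cut-off by less than 0.01. Ski, related to Skil and with the higher level per kb, had values of 12.61 in LD, 12.60 in CE and 12.55 in RUN, with 12.55 in L-RUN and 12.58 in H-RUN, between -0.07 and -0.01 from LD. The ubiquitin ligase genes Smurf1 and Smurf2, whose products mark Smads and receptors for breakdown, lay between -0.10 and 0.07 from LD.

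The Id genes, whose products block basic helix-loop-helix factors, were not called in any comparison. Id1 had values of 7.84 in LD, 7.93 in CE and 7.91 in RUN, with 7.92 in L-RUN and 7.81 in H-RUN. Id2, the Id gene with the highest level per kb, had 11.04 in LD, 11.002 in CE and 10.93 in RUN, with 10.97 in L-RUN and 10.96 in H-RUN. Id3 had 8.98 in LD, 9.07 in CE and 9.11 in RUN, with 9.08 in L-RUN against 9.04 in H-RUN, and Id4 9.90, 9.92, 9.94, 10.02 and 9.89 in the same order. LD was the highest library for Id2 and the lowest for Id3, and the differences of the Id genes from LD ran from -0.11 for Id2 to 0.13 for Id3, both in RUN. Between L-RUN and H-RUN all 4 were higher in L-RUN, by 0.01 to 0.14, with technical SDs of 0.031 to 0.047. With the length trend removed, Id2 came to -0.01, and the median of the 4 genes went from 0.08 to 0.04.

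A promoter of Tgfbr1, with a called difference, and that of Id4, a target gene without one, are shown because both hold GGCGCC, a GC-rich site known from BMP target genes. The 250 bases before the start of transcription are printed 5′ to 3′ from RefSeq on GRCm38.p6, both on the + strand, and capitals mark GGCGCC and any GTCT or AGAC, the core of the Smad binding site on either strand.
Tgfbr1, chr4:47352972-47353221: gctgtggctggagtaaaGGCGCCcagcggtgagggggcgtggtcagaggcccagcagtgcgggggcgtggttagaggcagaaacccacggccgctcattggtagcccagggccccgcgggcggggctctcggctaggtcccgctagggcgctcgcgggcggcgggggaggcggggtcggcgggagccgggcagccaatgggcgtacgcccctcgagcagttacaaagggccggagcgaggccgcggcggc
Id4, chr13:48260866-48261115: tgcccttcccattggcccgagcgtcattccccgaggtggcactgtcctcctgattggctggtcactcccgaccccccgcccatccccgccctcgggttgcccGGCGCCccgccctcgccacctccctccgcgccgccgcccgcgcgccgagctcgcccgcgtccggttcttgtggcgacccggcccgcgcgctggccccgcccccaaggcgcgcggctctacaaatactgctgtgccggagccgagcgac

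Each of these windows held 1 match of GGCGCC and none of GTCT or AGAC. RefSeq gives a second, downstream start for Tgfbr1, and the window before it, chr4:47385966-47386215, held no GGCGCC and 2 matches of GTCT or AGAC. RefSeq gave 38 promoter windows for 32 of the 46 members, up to 3 a gene. GGCGCC, which reads the same on both strands, was present in 11 of the 38 (28.9%) and in 9.59% of all 32851 windows of the same length, while GTCT or AGAC was present in 30 of the 38 (78.9%) and in 82.9% of all. The median GC content was 68.6% in the members' windows and 52.4% in all windows. The windows of Bmpr2 and Id2 each held GGCGCC once, and those of Id3 and Bmp6 did not hold it. Unlike the printed windows, those of Bmpr2, Id2, Id3 and Bmp6 overlap an annotated exon of the same gene in GENCODE. They lie before the RefSeq start but may be transcribed in part. A match of letters is a description and no evidence of binding.

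Differences between the libraries followed transcript length across all genes, and the members followed the same trend. Over 13465 expressed genes with an annotated length, the Spearman correlation between length and the difference from LD was -0.33 in CE and -0.49 in RUN, with -0.51 in L-RUN against -0.37 in H-RUN, and over the 40 members it was -0.59, -0.48, -0.49 and -0.42. These values are across genes of the same libraries and describe those libraries. Genes with transcripts over 8 kb had a median L-RUN difference of -0.14, and 12.2% of these 864 genes were called lower in L-RUN. The members had a median transcript length of 4.75 kb against 3.52 kb for all expressed genes. The Bmpr2 transcript of 12899 bases is longer than those of 99.1% of expressed genes. After the trend was removed with a smooth curve, Bmpr2 still differed from LD by -0.51 in L-RUN and -0.31 in RUN, and Skil by -0.37 in L-RUN. Tgfbr1 kept -0.39 in H-RUN, but in RUN it came to -0.28, and Skil came to -0.24 in RUN and -0.26 in CE, all 3 below the cut-off. Bmp6 in L-RUN (0.37), Bmp7 between L-RUN and H-RUN (0.33) and Acvr1c in H-RUN (0.37) were no smaller. Bmp1 became larger, 0.36 in L-RUN and 0.34 in RUN, and passed the cut-off in both. For the 7 expressed Smads the median became -0.05 in CE and -0.09 in RUN, with -0.09 in L-RUN and -0.08 in H-RUN. What lies behind the trend was not tested.

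**Figure D4:**
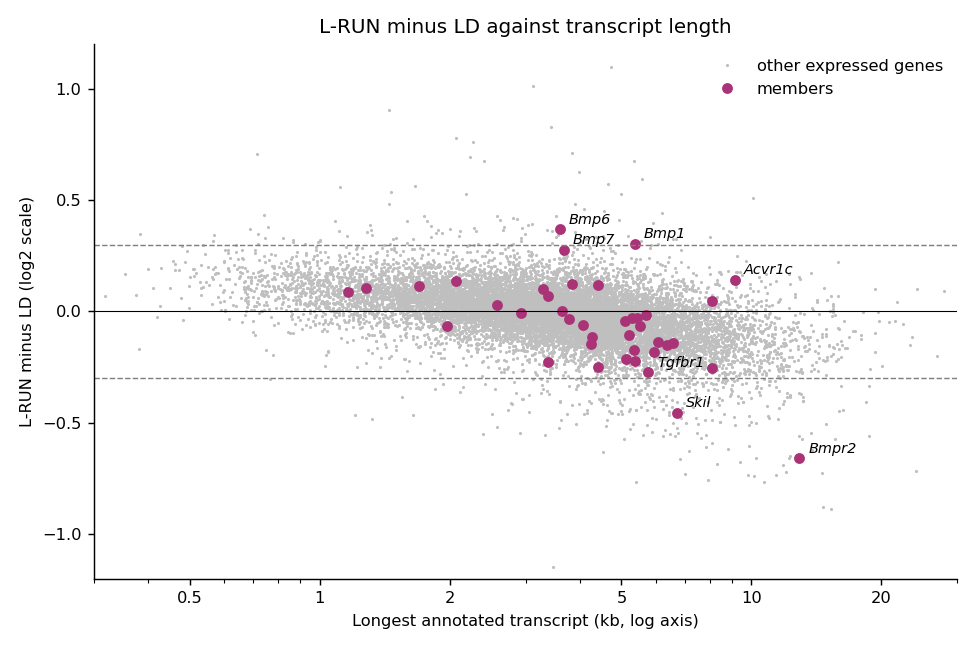
L-RUN minus LD (log2 scale, y axis) against the longest annotated transcript (kb, log axis) for expressed genes (grey; 6 lie outside the axes) and the 40 expressed members (purple), with dashed lines at the cut-off. The cloud slopes downward with length, and Bmpr2 lies at its long, low end at -0.66.

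RUN served as a repeat measurement of the members. For 31 of the 40 expressed members the RUN value lay between those of L-RUN and H-RUN. The distance of RUN from the computed mixture of L-RUN and H-RUN had a median size of 0.020 over the members, against 0.021 over all expressed genes, and was largest for Smad4, at -0.07. For the called genes it was 0.005 for Bmpr2, 0.017 for Tgfbr1, -0.002 for Skil, -0.002 for Bmp6, 0.016 for Bmp1, -0.036 for Acvr1c and -0.050 for Bmp7. The called differences between L-RUN and H-RUN were -0.44 for Bmpr2 and 0.33 for Bmp7. Since a call needs a difference of at least 0.3, their being larger than these distances follows from the selection. This repeat covers library preparation and sequencing of the same RNA and not other mice.

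Compared directly, the members that differed most between L-RUN and H-RUN were Bmpr2, followed by Bmp7, Skil and Bmp6. Of these, Skil, lower in L-RUN by a difference of -0.29, and Bmp6, higher by 0.26, did not reach the cut-off. Of the receptors other than Bmpr2, none differed between the 2 libraries by more than 0.19, with Acvr1b at -0.19, Acvr1c at -0.17 and Tgfbr1 at 0.15. The Smads differed by at most 0.14.

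Further pathway genes were followed in 6 lists. Of 20 other ligands of the superfamily only Inha and Amh were expressed and neither was called. Of 17 expressed genes of ligand latency, activation and processing, Thbs1, an activator of latent TGF-beta, was called higher in CE (0.69), and Itgb8, a subunit of an integrin that activates latent TGF-beta, was called lower in L-RUN (-0.39 from LD and -0.43 from H-RUN). Ltbp3, a latent TGF-beta binding protein, was higher in L-RUN than in H-RUN (0.32). Among 9 other receptors and coreceptors, the BMP coreceptor Rgmb was lower in L-RUN (-0.32). Of 33 expressed intracellular regulators, none was called in any comparison, with medians between -0.06 and -0.02.

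The list of 18 expressed secreted modulators held more called genes. Fmod and Bgn, proteoglycans that bind TGF-beta, were higher in L-RUN than in LD (1.01 and 0.38), and Fmod was higher in RUN as well (0.60). Dcn, of the same family, was higher in CE (0.37) and lower in H-RUN (-0.52), and it was 0.81 higher in L-RUN than in H-RUN. Fmod and Dcn are also on the list of leptomeningeal markers described above. The TGF-beta coreceptor Cd109 was lower in CE (-0.31) and L-RUN (-0.37), and the sulfatase Sulf2 was higher in CE (0.31). Fstl4 was lower in L-RUN than in H-RUN (-0.31). Of 14 expressed target genes, Col1a1 was called higher in CE (0.39) and L-RUN (0.40) and Col3a1 in L-RUN (0.59), both again leptomeningeal markers. No other target gene on the list was called, and its median difference from LD was 0.08 in CE and 0.03 in RUN, with 0.07 in L-RUN and -0.00068 in H-RUN.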

How the data were processed

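Per the labels and the study's methods, the authors trimmed and mapped the reads to mm10 with TopHat2 2.0.10, counted them on RefSeq genes with HTSeq, normalized all 5 libraries at once with DESeq2 1.10.1 and deposited regularized log values (log2 scale), 1 per gene and library. Of 23420 genes, 4588 were at 0 in all libraries. Values were used as deposited. Shrinkage makes differences of low genes too small, and without counts no count model was fitted.

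Differences were taken between libraries and called at 0.3, the cut-off of the study, among genes with a mean of at least 5. With 1 library per group no p-value was computed. The technical SD came from the median absolute deviation of RUN around L-RUN and H-RUN mixed in equal parts, per decile of level. The deviation has 1.5 times the variance of 1 library, and a difference 2 times. Transcript lengths and positions came from GENCODE M21 (GRCm38), matched by symbol or older symbol (99.4% of expressed genes), and the trend with length was removed by lowess (fraction 0.3).

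The members and all gene lists were chosen with earlier results of these data known. Named were members called in any comparison, the member of each role with the highest level (taken per kb, since levels of different genes compare only so, a change from the planned mean level that adds Acvr1 beside Acvr1b), and called genes of the other lists, up to 6 a list. Alternatives were a cut-off of 0.4, a minimum mean of 7 or none, median centring, quantile normalization, removal of the length trend and a baseline averaged over LD and CE. On simulated data (L-RUN minus LD, 13550 genes) 100% of 200 changed genes were recovered with 0 others called. The changes put in were far larger than the cut-off, and the noise (SD of a difference 0.037) held no differences between mice. The simulation therefore checks the code only and cannot tell how reliable calls near the cut-off are. Scripts ran in Python 3.11.15 with statsmodels 0.14.6, scipy 1.17.1, pandas 2.3.3, numpy 2.4.6 and matplotlib 3.10.9.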

Additional observations from a re-analysis of the deposited data

How the results depend on the processing

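At a cut-off of 0.4, the called members numbered 0 in CE, 1 in RUN, 2 in L-RUN, 1 in H-RUN and 1 between L-RUN and H-RUN, since only Bmpr2, Skil in L-RUN and Tgfbr1 in H-RUN exceeded it. In CE, the count was also 0 with quantile normalization and with the length trend removed, where Skil came to -0.28 and -0.26. With a baseline averaged over LD and CE, it was 1 in RUN and 1 in H-RUN, where Tgfbr1 came to -0.19 and -0.29 and Skil, in RUN, to -0.15. In L-RUN the count was 3 with that baseline, as Bmp1 came to 0.26 and was no longer called. With a minimum mean of 7, which leaves out Bmp6 and Bmp7, it was 1 between L-RUN and H-RUN. Of the 12 calls, 12 remained after median centring, 10 with quantile normalization and 9 with the length trend removed, and 5 of the 9 made in the running groups against LD remained with that baseline. Bmp1 in RUN passed the cut-off with quantile normalization and with the length trend removed. No called difference changed sign under median centring, quantile normalization, removal of the length trend or the other baseline. The technical SD was 0.037 with the mixture taken as the mean of the log values. No paired analysis was possible because each group had 1 library, and for the same reason no library could be left out. The depth of the libraries is unknown, so it is not known which small differences it could show.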
